A study of Arabidopsis thaliana with 16 samples.

Results

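The genes described here are the ERF-named genes of Arabidopsis thaliana, taken as every gene of the deposited expression table whose name starts with ERF followed by digits, which gave 80 of 33048 genes. Of these, 77 carry an ethylene response factor number, while ERF1-1, ERF1-2 and ERF1-3 encode eukaryotic release factor 1, the protein that ends translation at stop codons, and share only the letters of the name. Their levels are in FPKM, fragments per kilobase of transcript, scaled to the size of the library. There were 22 members under 1 FPKM in every library, which are counted apart, and 58 that reached 1 FPKM in at least 1 library. Family members that the table lists under other names, such as RAP2-2, RAP2-3, HRE1 and ABR1, fall outside the rule and are given only as context.

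The study asked which genes are held silent by a complex of the BAH-domain protein AIPP3, which reads the repressive histone mark H3K27me3, the PHD-finger proteins AIPP2 and PAIPP2, and the RNA polymerase II phosphatase CPL2 (the BAH–PHD–CPL2, or BPC, complex). RNA was sequenced from whole 12-day-old seedlings grown in 16 h of light and 8 h of dark, with 2 libraries for each of 8 genotypes. The 5 BPC genotypes were the double mutant aipp2-1/paipp2-1, its single mutants aipp2-1 and paipp2-1, aipp3-1 and cpl2-2, the 2 Polycomb genotypes were clf-81, mutated in the methyltransferase CLF that writes H3K27me3, and lhp1-3, mutated in LHP1, which binds it, and Col-0 was the wild type. The mutants aipp3-1, aipp2-1 and cpl2-2 are T-DNA insertion lines and paipp2-1 is a CRISPR/Cas9 line, so that each gene was represented by 1 allele. In whole seedlings, fewer cells of a type and less RNA per cell cannot be told apart. The labels do not say that the libraries of a genotype came from separately grown plants. The p-values therefore measure only the spread between libraries of a genotype, pooled over the 8 genotypes.

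Ethylene response factors share the AP2/ERF DNA-binding domain. When ethylene binds its receptors, the kinase CTR1 is switched off, EIN2 signals to the nucleus, and the transcription factors EIN3 and EIL1 switch on ERF genes such as ERF1B, whose products bind the GCC box of defence genes, including plant defensins. Other members carry an EAR motif and repress transcription, and many members respond within minutes to wounding, touch, chitin or osmotic stress.

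The labels were checked on the mutated genes. AIPP3 had 5.99 and 4.84 FPKM in aipp3-1, against 22.8 and 23.6 FPKM in Col-0, CPL2 had 6.01 and 6.12 FPKM in cpl2-2, against 15.3 and 14.1 FPKM in Col-0, and AIPP2 had 1.38 and 1.36 FPKM in aipp2-1/paipp2-1, against 5.24 and 5.44 FPKM in Col-0. AIPP2 in aipp2-1 (3.67 and 4.21 FPKM), PAIPP2 in paipp2-1 (7.82 and 6.63, against 10.8 and 11.1 FPKM in Col-0), CLF in clf-81 (7.05 and 8.11, against 9.94 and 9.98 FPKM in Col-0) and LHP1 in lhp1-3 (6.29 and 6.45, against 8.94 and 10.2 FPKM in Col-0) were lower in both libraries but did not pass the test. AIPP2 was higher in aipp2-1 than in aipp2-1/paipp2-1, which carries the same allele, so the check on the aipp2-1 label is weak. Library depth, estimated from the steps between low FPKM values, was 19200000 to 27100000 fragments, with a median of 22800000. At that median, 3 fragments on a member transcript correspond to 0.0607 to 0.332 FPKM, depending on its length. The 2 libraries of a genotype correlated across genes at 0.987 to 0.992, except those of aipp2-1/paipp2-1, at 0.942. In replicate 1 of aipp2-1/paipp2-1 the light-harvesting gene listed as LHCB1.1 had 13.04 FPKM, against 234 FPKM in its other library and at least 132 FPKM elsewhere, and 13 of the 57 tested members differed at least 2-fold between these 2 libraries.

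Members covered a wide range of levels. Averaged over the 16 libraries, 31 members were under 1 FPKM, 31 were between 1 and 10 FPKM, 15 between 10 and 50 FPKM, and 3 at 50 FPKM or more, and 37 reached 1 FPKM in all 16 libraries. FPKM is scaled by transcript length, so these levels can be set beside each other. The highest was ERF106 at 91.4 FPKM on average (range 73.9 to 121 FPKM), followed by ERF1-2 at 69.0 FPKM, ERF107 at 50.3 FPKM, ERF1-1 at 45.1 FPKM and ERF104 at 32.3 FPKM. ERF107 (range 34.6 to 82.0 FPKM) and the release factor ERF1-1 (range 35.1 to 59.1 FPKM) overlapped, as did ERF107 and ERF1-2 (range 62.1 to 78.7 FPKM). ERF019, ERF105 and ERF015 were listed at 0 in all 16 libraries. The file also lists RBCS-1A, a gene of the carbon-fixing enzyme Rubisco, at 0.2 to 0.43 FPKM in green seedlings, so a value of 0 in this table is not read as absence of the transcript.

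A test was run for each mutant against Col-0 with limma on log2(FPKM + 0.5) over the genes that reached 1 FPKM in 2 or more libraries. That left 19895 genes, among them 57 members, and the other 23 members were too low to be tested. A member was called when its adjusted p was under 0.05 and it changed 2-fold or more, and adding 0.5 makes the changes of low genes look smaller than they are. ERF027, ERF114 and ERF14 passed the filter only through 1 genotype, ERF027 through paipp2-1 and the other 2 through clf-81, and so had to differ there. ERF098 reached 1 FPKM only in aipp3-1 and aipp2-1/paipp2-1, so its calls there are a description, and the counts below include it. In all, 22 members were called in at least 1 mutant (17 higher, 6 lower, with ERF2 in both sets) and 35 in none. The share of all tested genes called in at least 1 mutant was not counted, so these totals have no background beside them. The release factor genes were among the 35, although ERF1-1 was higher by less than 2-fold in cpl2-2 (log2 change 0.60, adjusted p = 0.0077, limma), clf-81 (0.50, adjusted p = 0.0058) and aipp2-1/paipp2-1 (0.47, adjusted p = 0.011).

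In aipp3-1, 10 members were higher and 0 lower, where 3.14% of all tested genes were higher and 0.251% lower. With quantile normalization the split was 8 higher and 1 lower (416 and 94 of all 19895 tested genes). In cpl2-2, 2 were higher and 1 lower, where 2.71% of all tested genes were higher and 0.332% lower. In aipp2-1/paipp2-1, 7 were higher and 2 lower, where 6.44% of all tested genes were higher and 1.28% lower. Quantile normalization gave 5 higher and 3 lower members there (1040 and 429 of all 19895 tested genes). In the single mutants aipp2-1 and paipp2-1, limma called 0 members in either direction, where 0.00503% and 0.131% of all tested genes were higher. At an unadjusted p under 0.05, 5 members were higher and 0 lower in aipp2-1 (2.4% and 1.25% of all tested genes) and 9 were higher and 4 lower in paipp2-1 (6.37% and 4.26%). In clf-81, 10 members were higher and 2 lower, where 5.98% of all tested genes were higher and 2.55% lower, and 8 were higher without ERF114 and ERF14. In lhp1-3, 0 were higher and 4 lower, where 2.8% of all tested genes were higher and 1.82% lower, and at an unadjusted p under 0.05 the counts were 2 higher and 16 lower (15.8% and 15.3% of all tested genes). With no minimum fold, the aipp3-1 counts were 14 higher and 1 lower (7.42% and 1.93% of all tested genes), those of cpl2-2 3 higher and 3 lower (4.97% and 1.97%), and those of aipp2-1/paipp2-1 9 higher and 9 lower (14.8% and 9.08%). All 7 comparisons share the 2 Col-0 libraries, so their calls are not independent of each other. Each gene has 1 estimate of spread for all genotypes, so its standard error does not widen where the libraries of 1 genotype differ more. The median absolute log2 difference between the 2 libraries was 0.40 in aipp2-1/paipp2-1, beside 0.08 to 0.14 in the other genotypes.

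**Figure D1:**
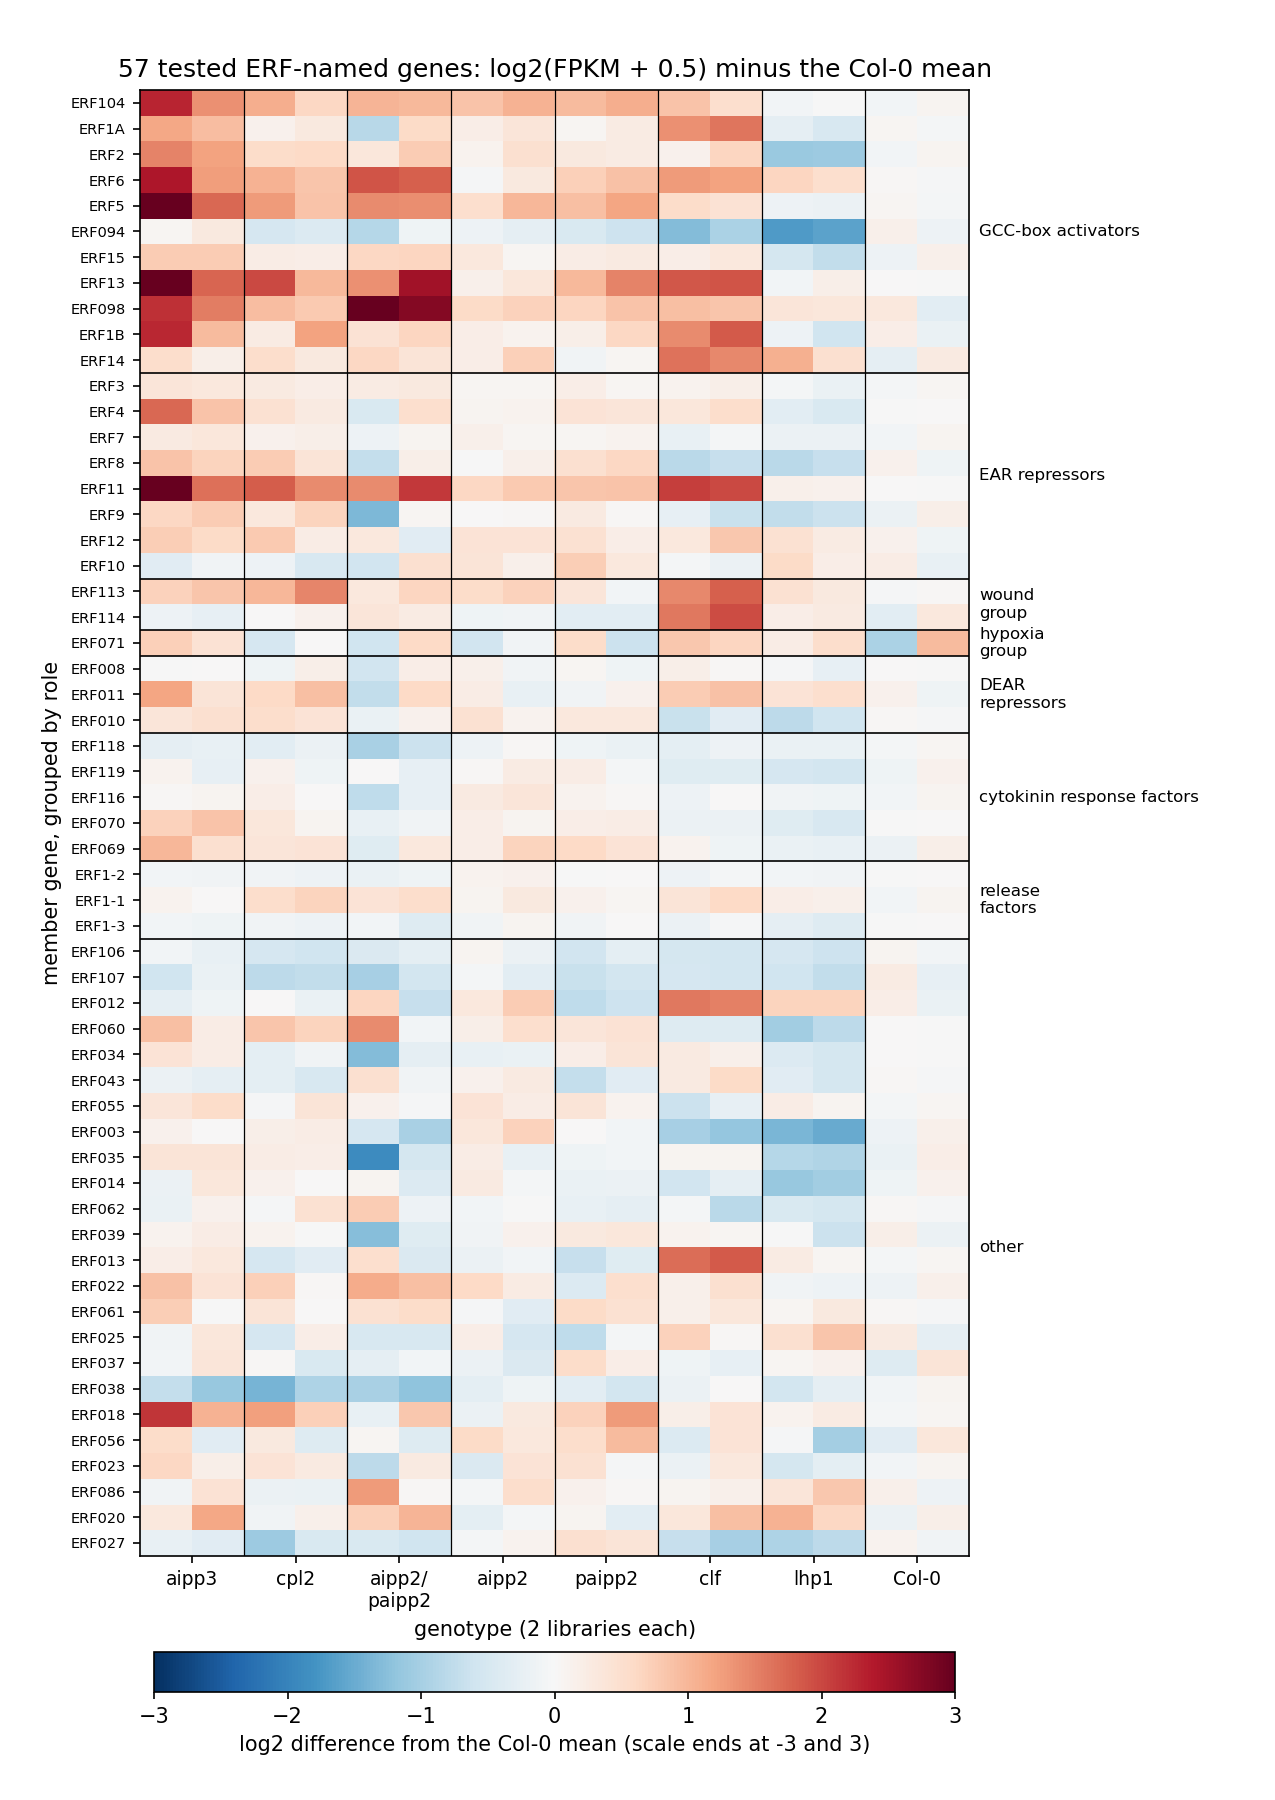
Level of each of the 57 tested members in each of the 16 libraries, as log2(FPKM + 0.5) minus the mean of the 2 Col-0 libraries; rows are genes grouped by role, columns are libraries with the mutants left of Col-0, red is higher and blue lower. The block of GCC-box activators holds 7 of the 10 members called higher in aipp3-1, and none of the release factor rows reaches a 2-fold change. Their largest log2 change in the limma fit, over the 2 libraries of a genotype, was 0.60 for ERF1-1 in cpl2-2.

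Grouped by role, the GCC-box activators (transcription factors that switch on GCC-box genes) had 14 members, 11 of them tested. The role lists were drawn up with earlier results of these data known. Over all tested genes, the share called higher was 3.14% in aipp3-1, 2.71% (cpl2-2), 6.44% (aipp2-1/paipp2-1), 5.98% (clf-81) and 2.8% (lhp1-3). The median log2 change over all tested genes lay between -0.06 (clf-81) and 0.07 (aipp3-1) in the 7 mutants. In aipp3-1, 7 of these 11 activators were higher and 0 lower, with a median log2 change of 1.59, beside 0.07 over all tested genes. In cpl2-2 the counts were 0 higher and 0 lower (median 0.74), in aipp2-1/paipp2-1 5 higher and 0 lower (median 0.63), in clf-81 5 higher and 1 lower (median 0.87; 4 higher without ERF14, which passed the filter only there), and in lhp1-3 0 higher and 2 lower (median -0.16). In aipp2-1 and paipp2-1 none was called, with medians of 0.29 and 0.40. The log2 change was above 0 for all 11 in aipp3-1, for 10 in each of clf-81, cpl2-2 and aipp2-1, for 9 in each of paipp2-1 and the double mutant, and for 4 in lhp1-3. The EAR repressors numbered 8, all tested, of which 2 were higher in aipp3-1, 1 in each of clf-81, cpl2-2 and the double mutant, and 0 in lhp1-3. None of the 5 tested cytokinin response factors, the 3 DEAR repressors or the 3 release factors was called in any mutant.

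ERF5, ERF6 and ERF104 encode activators that respond to stress, ERF6 and ERF104 being known targets of the stress-activated kinase MPK6. ERF5 had 12.9 and 12.8 FPKM in the double mutant aipp2-1/paipp2-1, 6.64 and 9.56 (aipp2-1), 8.9 and 10.9 (paipp2-1), 39.9 and 16.1 (aipp3-1), 11.7 and 8.54 (cpl2-2), 4.05 and 3.95 (lhp1-3) and 6.87 and 6.29 FPKM (clf-81), against 4.71 and 4.36 FPKM in Col-0. Both aipp3-1 libraries were above all libraries of the other genotypes, and only those of lhp1-3 lay below Col-0. ERF5 rose in aipp3-1 (log2 change 2.36 ± 0.32 SE, adjusted p = 0.0017, limma) and in aipp2-1/paipp2-1 (1.41 ± 0.32, adjusted p = 0.0089). In cpl2-2 its log2 change was 1.06 with an adjusted p of 0.07, which did not pass.

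ERF6 had 24.9 and 23.3 FPKM in the double mutant aipp2-1/paipp2-1, 6.21 and 7.93 (aipp2-1), 10.8 and 12 (paipp2-1), 36.3 and 15.9 (aipp3-1), 13.7 and 11.7 (cpl2-2), 10.3 and 9.24 (lhp1-3) and 16.2 and 15.2 FPKM (clf-81), against 6.54 and 6.18 FPKM in Col-0. The libraries of aipp3-1, aipp2-1/paipp2-1, cpl2-2, clf-81, paipp2-1 and lhp1-3 all lay above Col-0, and those of aipp2-1 overlapped it. ERF6 rose in aipp3-1 and in aipp2-1/paipp2-1 by the same log2 change of 1.84 ± 0.27 SE (adjusted p = 0.0025 and 0.00076, limma) and in clf-81 by 1.24 (adjusted p = 0.0053). ERF104 had 34.9 and 33.6 FPKM in the double mutant aipp2-1/paipp2-1, 30.8 and 35.6 (aipp2-1), 33 and 36.2 (paipp2-1), 83.5 and 44.6 (aipp3-1), 36.2 and 26.2 (cpl2-2), 15.8 and 16.7 (lhp1-3) and 31.1 and 24.3 FPKM (clf-81), against 16 and 17.8 FPKM in Col-0. Every mutant except lhp1-3, whose 2 libraries lay at the Col-0 level, was above Col-0. ERF104 rose in aipp3-1 (log2 change 1.83 ± 0.24 SE, adjusted p = 0.0015, limma) and, just at 2-fold, in aipp2-1/paipp2-1 (1.00, adjusted p = 0.012).

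ERF13, an activator, and ERF098, the transcriptional regulator of defense response TDR1, had low levels in Col-0. ERF13 had 2.58 and 6.35 FPKM in the double mutant aipp2-1/paipp2-1, 0.84 and 1.01 (aipp2-1), 1.84 and 2.86 (paipp2-1), 10 and 3.53 (aipp3-1), 4.26 and 1.85 (cpl2-2), 0.63 and 0.86 (lhp1-3) and 3.87 and 3.96 FPKM (clf-81), against 0.71 and 0.69 FPKM in Col-0. ERF13 rose in aipp3-1 (log2 change 2.44 ± 0.46 SE, adjusted p = 0.0083, limma), aipp2-1/paipp2-1 (1.94, adjusted p = 0.012) and clf-81 (1.88, adjusted p = 0.01), and in cpl2-2 its 1.48 did not pass (adjusted p = 0.082). ERF098 had 5.11 and 4.14 FPKM in the double mutant aipp2-1/paipp2-1, 0.53 and 0.61 (aipp2-1), 0.57 and 0.74 (paipp2-1), 2.63 and 1.48 (aipp3-1), 0.81 and 0.68 (cpl2-2), 0.38 and 0.37 (lhp1-3) and 0.79 and 0.73 FPKM (clf-81), against 0.36 and 0.05 FPKM in Col-0. The 2 aipp2-1/paipp2-1 libraries were the highest of all 16 and did not overlap those of any other genotype. ERF098 rose in aipp2-1/paipp2-1 (log2 change 2.89 ± 0.26 SE, adjusted p = 3.2e-05, limma) and in aipp3-1 (1.86 ± 0.26, adjusted p = 0.0019). Since it passed the level filter only through these 2 genotypes, this is given as a description. Its lower Col-0 value was under the 0.167 FPKM that 3 fragments give at the median depth. ERF1B, a direct target of EIN3, had 3.13 and 0.96 FPKM in aipp3-1 and 1.55 and 2.25 FPKM in clf-81, against 0.38 and 0.16 FPKM in Col-0, and rose in both (log2 change 1.59 and 1.64, adjusted p = 0.035 and 0.013).

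ERF11, an EAR repressor known to bind the promoters of ethylene synthesis genes, was called in more mutants than any other member. ERF11 had 5.44 and 9.11 FPKM in the double mutant aipp2-1/paipp2-1, 2.9 and 3.28 (aipp2-1), 3.44 and 3.49 (paipp2-1), 20 and 6.44 (aipp3-1), 7.3 and 5.4 (cpl2-2), 1.96 and 1.9 (lhp1-3) and 8.74 and 8.18 FPKM (clf-81), against 1.74 and 1.68 FPKM in Col-0. It was above both Col-0 libraries in all 14 mutant libraries. The log2 change was 2.43 ± 0.38 SE in aipp3-1 (adjusted p = 0.0031, limma), 2.02 in clf-81 (adjusted p = 0.0021), 1.77 in aipp2-1/paipp2-1 (adjusted p = 0.0066) and 1.62 in cpl2-2 (adjusted p = 0.025), whereas 0.14 in lhp1-3 did not pass (adjusted p = 0.85). ERF098 was the other member above Col-0 in all 14 libraries, so 2 of 57 members did this, where 1.85% of all tested genes did. ERF098 counts here although it passed the level filter only through aipp3-1 and aipp2-1/paipp2-1. Leaving lhp1-3 aside, 6 members, ERF2, ERF5, ERF11, ERF13, ERF098 and ERF104, were above both Col-0 libraries in the other 12 mutant libraries, where 2.43% of all tested genes were. No member was below both Col-0 libraries in all 14, where 1.07% of all tested genes were.

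**Figure D2:**
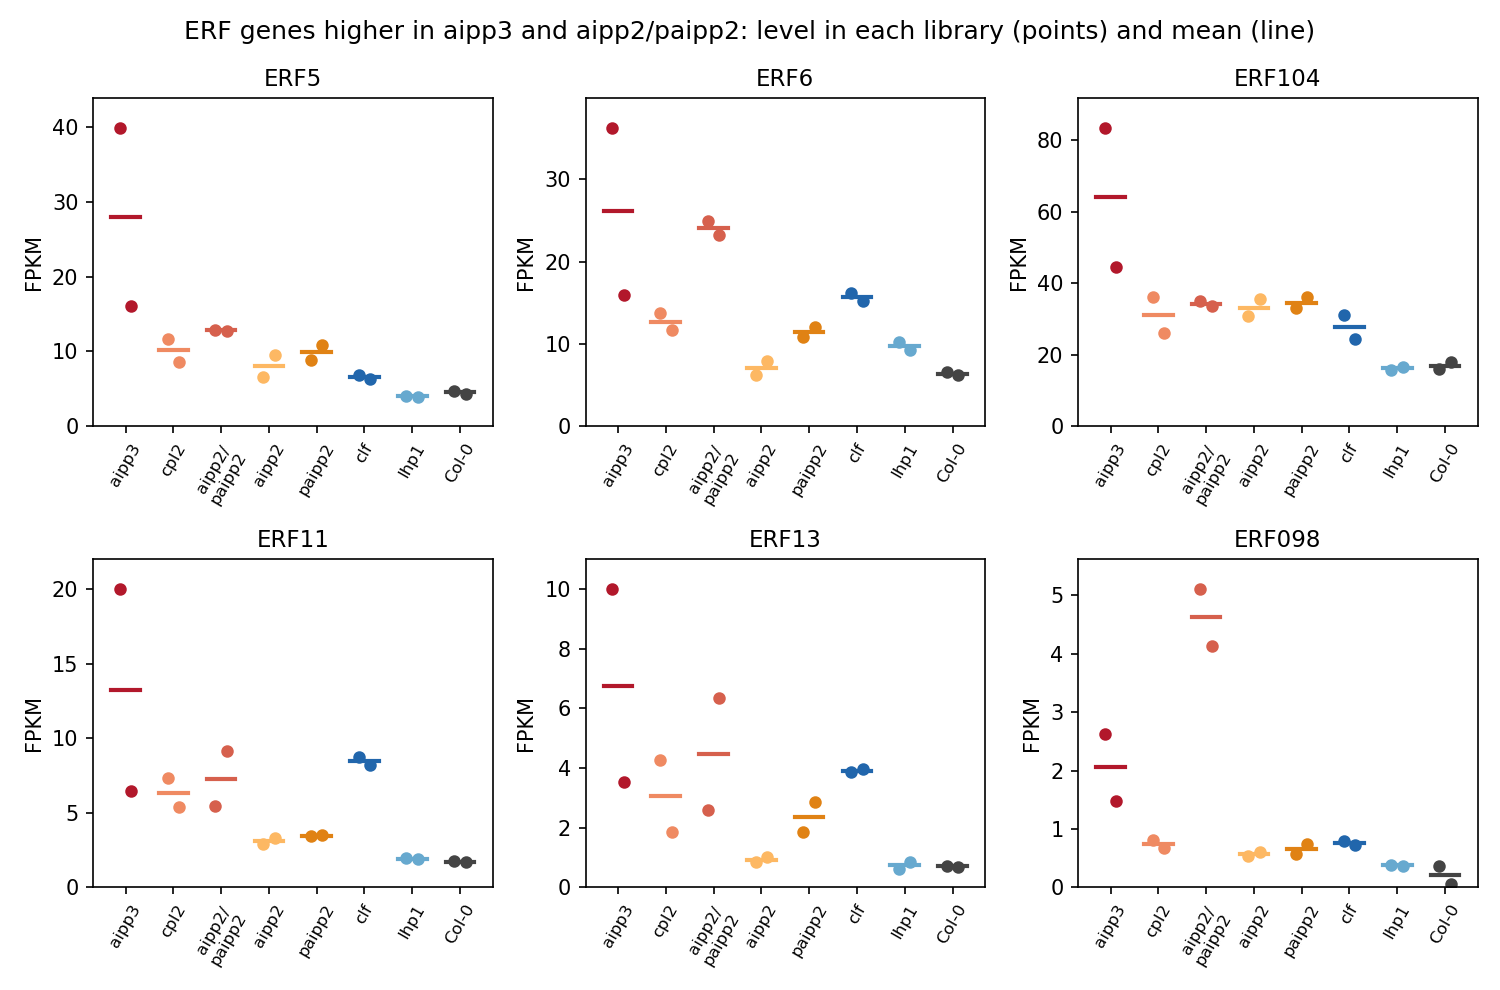
FPKM of ERF5, ERF6, ERF104, ERF11, ERF13 and ERF098 in each library (points) with the mean of the 2 libraries (line), mutants left and Col-0 right, each axis starting at 0. In aipp3-1 replicate 1 lies above replicate 2 for every gene shown, for ERF11 at 20 against 6.44 FPKM, while ERF098 is highest in aipp2-1/paipp2-1.

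The other members called in aipp3-1 were ERF2, an activator of GCC-box genes, ERF4, an EAR repressor, and ERF018, known as ORA47, an activator of jasmonate synthesis. ERF4 had 62.8 and 34.3 FPKM in aipp3-1, against 18.7 and 18.8 FPKM in Col-0, and rose by 1.29 on the log2 scale (adjusted p = 0.017, limma). ERF018 had 4.35 and 1.75 FPKM in aipp3-1, against 0.54 and 0.64 FPKM in Col-0, and rose by 1.60 (adjusted p = 0.028). Without replicate 1 of aipp3-1, 6 members remained called, and ERF4, ERF13, ERF018 and ERF1B no longer passed. Without replicate 1 of Col-0 the count was also 6, and ERF2, ERF5, ERF6, ERF11, ERF098 and ERF104 passed under each of 25 or 26 alternative settings.

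The level of these genes was set beside that of rapid touch and wound response genes. This list of 9 genes holds TCH2, TCH3, TCH4, ZAT10, ZAT12, WRKY33, WRKY40, CZF1 and SZF1, which are known to be induced within minutes by handling, wounding or elicitors. Of the 9, 7 were higher in each of aipp3-1, clf-81 and aipp2-1/paipp2-1, 4 in cpl2-2 and 0 in aipp2-1, paipp2-1 and lhp1-3. ZAT10 had 80.7 and 28.0 FPKM in aipp3-1, against 3.27 and 5.2 FPKM in Col-0 (log2 change 3.37, adjusted p = 0.00085, limma). The genes of the list did not all follow this. TCH4 had 29.0 and 23.0 FPKM in aipp3-1 and 11.2 and 17.9 FPKM in paipp2-1, against 22.8 and 21.9 FPKM in Col-0. TCH2 had 26.9 and 13.7 FPKM in aipp3-1, against 14.2 and 15.2 FPKM in Col-0. Both were highest in clf-81, TCH4 at 84.5 and 84.6 FPKM and TCH2 at 35.0 and 35.7 FPKM. The summed level of the list was 424 and 330 FPKM in the double mutant aipp2-1/paipp2-1, 153 and 191 (aipp2-1), 145 and 153 (paipp2-1), 528 and 244 (aipp3-1), 239 and 192 (cpl2-2), 161 and 160 (lhp1-3) and 319 and 321 (clf-81), against 110 and 118 FPKM in Col-0. The summed level of the 8 members called higher in at least 2 mutants was 91.9 and 97.0 FPKM in the double mutant, 54.8 and 65.6 (aipp2-1), 64.6 and 70.9 (paipp2-1), 203 and 97.2 (aipp3-1), 83.5 and 68.4 (cpl2-2), 39.5 and 38.3 (lhp1-3) and 81.7 and 77.2 (clf-81), against 34.6 and 35.4 FPKM in Col-0. Both sums were lowest in Col-0 and highest in replicate 1 of aipp3-1. Of the 8 members, 7 were higher in replicate 1 of aipp3-1 than in replicate 2, and the median signed log2 difference of the 8 was 1.22. The median absolute difference, a different measure, was 0.23 over the 57 tested members and 0.11 over all tested genes. The part of the touch and wound response in the ERF result was not tested.

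**Figure D3:**
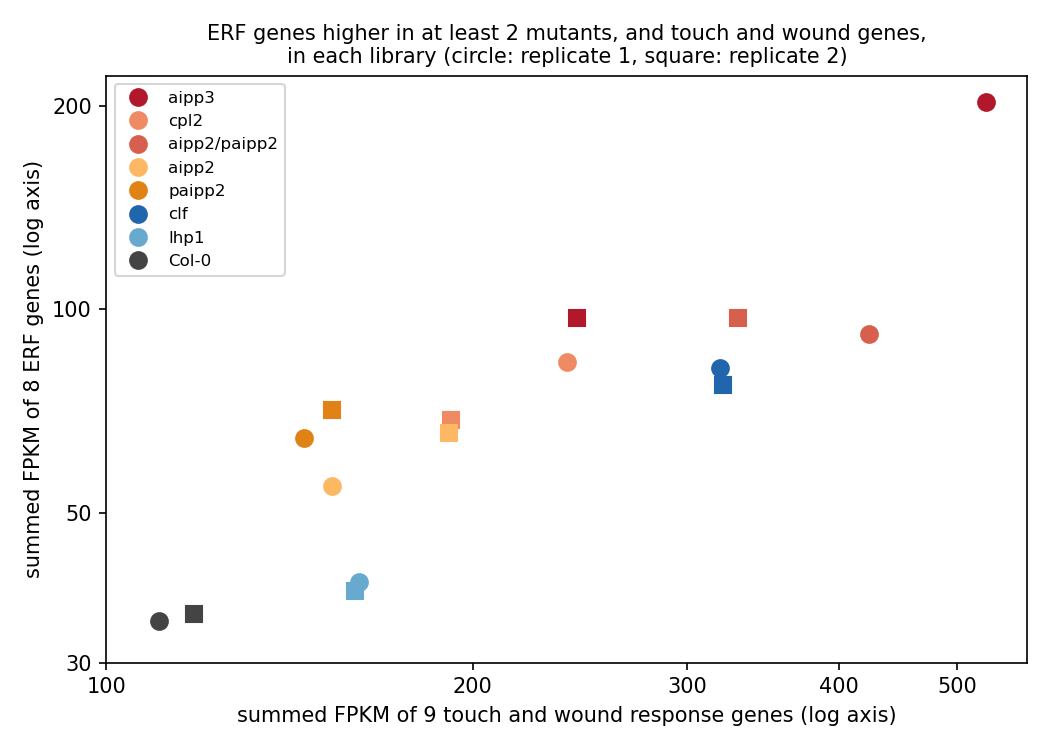
Summed FPKM of the 8 members called higher in at least 2 mutants (vertical, log axis) against summed FPKM of 9 touch and wound response genes (horizontal, log axis) in each library, circles for replicate 1 and squares for replicate 2. The Col-0 libraries sit at the lower left (34.6 and 35.4 FPKM for the ERF genes) and replicate 1 of aipp3-1 at the upper right (203 FPKM); the ERF genes were chosen for being higher, so their order is a description.

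The 250 bases upstream of the annotated gene starts in TAIR10.1 (RefSeq) were searched on both strands for 3 motifs. The letters GCCGCC of the GCC box stood in 3 of 80 members (3.75%; ERF11, ERF15 and ERF094) and in 1.87% of 27438 genes of the table. TTGACC or TTGACT, the W box bound by WRKY factors, stood in 22 of 80 members (27.5%), beside 28.4% of all genes, and in 3 of the 8 members called higher in at least 2 mutants. CGCGTT, the rapid stress response element, stood in 4 of 80 members (5.0%), beside 2.59% of all genes, and in 0 of those 8. The share of members with a W box was thus near that of all genes. The sequences are shown, as 3 pairs of neighbouring genes of which the first of each pair was called higher in more mutants, to set the letters beside the levels described here, with GCC box and W box letters in capitals (AGTCAA is the W box read on the other strand).
ERF11 (chr1:9956981-9957230, minus strand): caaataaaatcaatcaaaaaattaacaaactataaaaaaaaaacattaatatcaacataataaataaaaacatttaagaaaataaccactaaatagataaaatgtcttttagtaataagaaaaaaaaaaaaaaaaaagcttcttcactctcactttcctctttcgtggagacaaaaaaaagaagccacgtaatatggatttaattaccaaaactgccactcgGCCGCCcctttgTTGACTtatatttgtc
ERF12 (chr1:9951512-9951761, plus strand): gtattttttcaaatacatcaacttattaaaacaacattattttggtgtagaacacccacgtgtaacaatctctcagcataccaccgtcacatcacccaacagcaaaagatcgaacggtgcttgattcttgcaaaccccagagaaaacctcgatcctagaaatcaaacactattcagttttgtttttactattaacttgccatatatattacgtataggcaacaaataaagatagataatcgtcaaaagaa
ERF5 (chr5:19179631-19179880, plus strand): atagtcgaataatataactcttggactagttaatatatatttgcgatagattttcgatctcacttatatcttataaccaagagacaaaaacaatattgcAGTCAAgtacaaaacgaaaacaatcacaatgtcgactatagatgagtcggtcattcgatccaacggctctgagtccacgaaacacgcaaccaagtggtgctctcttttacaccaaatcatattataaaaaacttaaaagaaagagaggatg
ERF2 (chr5:19172957-19173206, minus strand): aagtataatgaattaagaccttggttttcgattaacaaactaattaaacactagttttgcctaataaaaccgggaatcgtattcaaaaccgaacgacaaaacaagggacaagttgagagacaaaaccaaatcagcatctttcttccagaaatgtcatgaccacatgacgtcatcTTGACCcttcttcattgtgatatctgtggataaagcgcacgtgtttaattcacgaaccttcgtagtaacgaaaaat
ERF104 (chr5:24767733-24767982, minus strand): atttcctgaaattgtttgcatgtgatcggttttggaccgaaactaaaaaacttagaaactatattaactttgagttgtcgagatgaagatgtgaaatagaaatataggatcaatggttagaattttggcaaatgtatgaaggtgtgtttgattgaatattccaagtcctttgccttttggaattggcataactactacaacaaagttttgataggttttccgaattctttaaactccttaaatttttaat
ERF107 (chr5:24765512-24765761, minus strand): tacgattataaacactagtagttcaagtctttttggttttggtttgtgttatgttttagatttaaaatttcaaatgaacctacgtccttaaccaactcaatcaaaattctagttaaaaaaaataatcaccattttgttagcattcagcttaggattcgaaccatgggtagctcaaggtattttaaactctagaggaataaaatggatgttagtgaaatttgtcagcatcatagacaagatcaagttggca
ERF11 holds a GCC box that starts 28 bases and a W box that starts 16 bases before the gene start, ERF5 a W box 151 bases and ERF2 a W box 76 bases before it, and the windows of ERF12, ERF104 and ERF107 hold none of the 3 motifs. A match of letters is a description of the window and not a site.

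The levels of these neighbours are given side by side. ERF11 and ERF12, an EAR repressor as well, point towards each other on chromosome 1 with 2668 bases and no annotated coding gene between them. ERF12 had 2.07 and 1.77 FPKM in aipp3-1 and 1.42 and 2.2 FPKM in clf-81, against 1.18 and 0.9 FPKM in Col-0, and was called in no mutant (log2 changes -0.01 to 0.66). ERF104 lies 832 bases from ERF107 on the same strand of chromosome 5. ERF107 had 45.7 and 60.3 FPKM in aipp3-1 and 34.6 and 46.9 FPKM in aipp2-1/paipp2-1, against 82.0 and 58.6 FPKM in Col-0, and its log2 change lay between -0.77 and -0.19 in the 7 mutants, below 0 in each, with none at 2-fold. In cpl2-2, aipp2-1/paipp2-1 and lhp1-3 its adjusted p was 0.03, 0.012 and 0.028 (limma).

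ERF6 and ERF1A are divergent neighbours on chromosome 4, 5041 bases apart. ERF1A had 10.6 and 29.0 FPKM in aipp2-1/paipp2-1 and 50.8 and 59.9 FPKM in clf-81, against 20.1 and 18.6 FPKM in Col-0, and rose in clf-81 (log2 change 1.49, adjusted p = 0.0048, limma). In aipp2-1/paipp2-1, where ERF6 rose by 1.84, ERF1A had a log2 change of -0.13 (adjusted p = 0.79), and its 2 libraries there lay on either side of Col-0. ERF2 and ERF5 are 6924 bases apart on chromosome 5 with 2 coding genes between them, and both rose in aipp3-1. ERF098 lies 776 bases from ERF095, an activator that was listed at 0 in 15 of 16 libraries, and 5452 bases from ERF1B. The differences in response between neighbours were not tested.

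**Figure D4:**
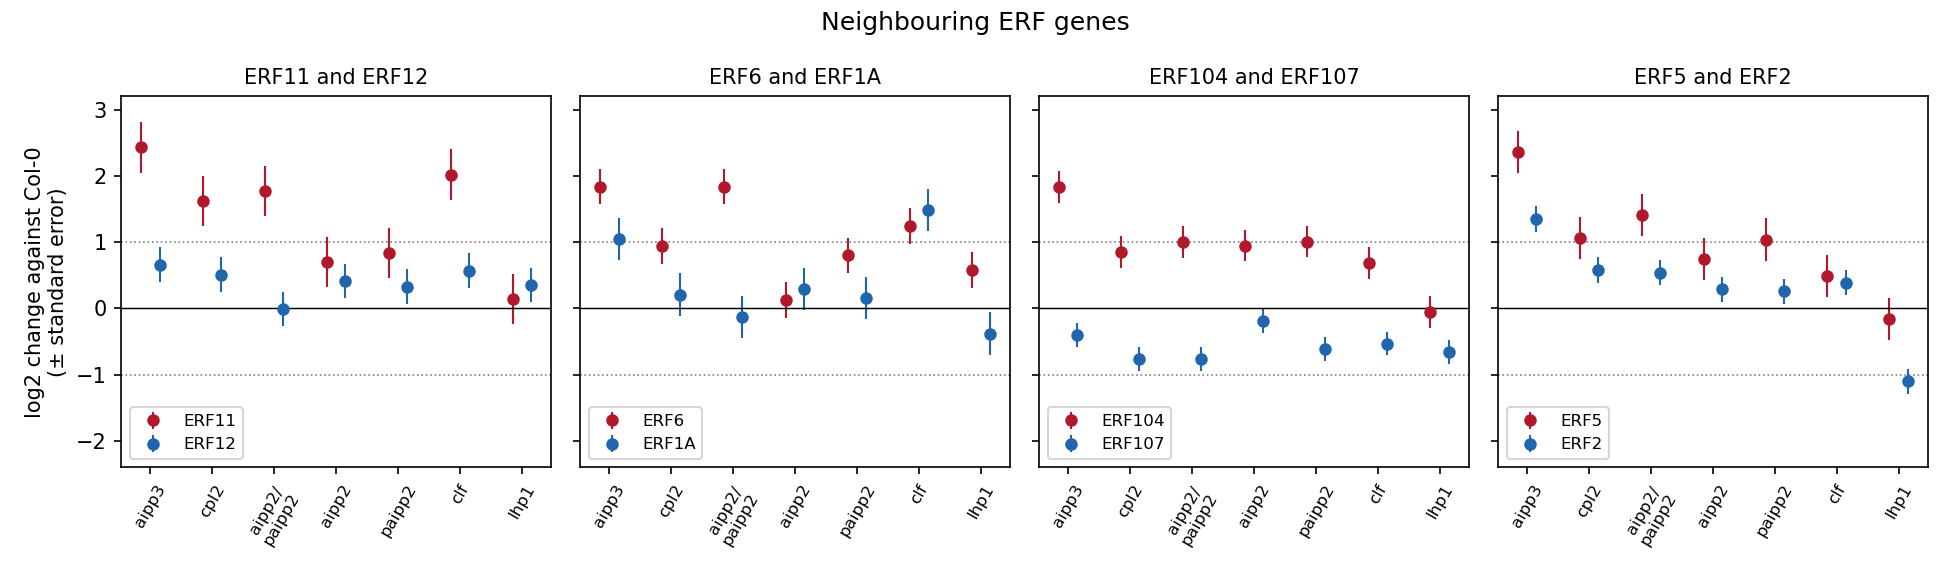
Log2 change against Col-0 (points, with standard error bars) of 4 pairs of neighbouring ERF genes in the 7 mutants; dotted lines mark a 2-fold change in either direction. In aipp3-1 ERF11 stands at 2.43 and ERF12 at 0.66, and ERF104 at 1.83 and ERF107 at -0.40.

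Members of the wound group were among those called higher in clf-81. ERF113, known as RAP2.6L and linked to wound healing in the stem, had 12.6 and 16.3 FPKM in clf-81 and 9.01 and 12.8 FPKM in cpl2-2, against 4.15 and 4.46 FPKM in Col-0. The values of both mutants lay above Col-0 without overlap, and it rose in clf-81 (log2 change 1.63 ± 0.20 SE, adjusted p = 0.00012, limma) and in cpl2-2 (1.23 ± 0.20, adjusted p = 0.0037). ERF114 of the same wound group had 1.64 and 2.28 FPKM in clf-81, against 0.07 and 0.39 FPKM in Col-0, and at most 0.41 FPKM in the other mutants, and since it passed the level filter only through clf-81 this is given as a description. RAP2-6, a close relative of ERF113 listed under its own name, had 26.9 and 35.4 FPKM in clf-81, against 5.95 and 4.69 FPKM in Col-0 (log2 change 2.44, adjusted p = 0.00014). ERF110 of this group, too low to be tested, was at 0.39 and 0.67 FPKM in clf-81 and at 0.04 FPKM or 0 in every other library. Counting genes listed under other names, the wound group had 8 genes, 5 of them tested. In clf-81, 3 of the 5 were higher and 1 lower. ABR1 went the other way there, with 0.63 and 1.28 FPKM, against 3.48 and 1.81 FPKM in Col-0. In lhp1-3, 0 were higher and 2 lower, and RAP2-6 had 2.12 and 2.04 FPKM.

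ERF012 and ERF013, of the DREB branch of the AP2/ERF factors, were called in clf-81 alone. ERF012 had 26.2 and 10 FPKM in the double mutant aipp2-1/paipp2-1, 20.8 and 28.5 (aipp2-1), 9.62 and 10.7 (paipp2-1), 13.7 and 15.1 (aipp3-1), 16.9 and 14.4 (cpl2-2), 26.5 and 26.5 (lhp1-3) and 50.8 and 48.3 FPKM (clf-81), against 19.3 and 14.3 FPKM in Col-0. The 2 clf-81 libraries were above all others, and ERF012 rose by 1.55 ± 0.32 SE on the log2 scale (adjusted p = 0.0039, limma). ERF013 had 2.58 and 1.12 FPKM in the double mutant aipp2-1/paipp2-1, 1.43 and 1.54 (aipp2-1), 0.84 and 1.19 (paipp2-1), 1.99 and 2.21 (aipp3-1), 1.04 and 1.22 (cpl2-2), 2.08 and 1.75 (lhp1-3) and 6.49 and 7.3 FPKM (clf-81), against 1.59 and 1.76 FPKM in Col-0. Here too the clf-81 libraries did not overlap any other, with a log2 change of 1.76 ± 0.25 SE (adjusted p = 0.00033). ERF14, an activator, had 1.35 and 1.12 FPKM in clf-81, against 0 and 0.22 FPKM in Col-0, likewise a description, since it passed the filter only there. Whether these changes differ between clf-81 and the other mutants was tested only for the mean of clf-81 and lhp1-3. Without replicate 2 of clf-81 the count of higher members was 6, since ERF114 and ERF14 then fell under the level filter and ERF13 and ERF1B no longer passed.

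ERF003, known as ESE3 and induced by ethylene and salt, and ERF094, known as ORA59, which joins the ethylene and jasmonate signals at defensin genes, were lower in both Polycomb genotypes. ERF003 had 6.23 and 4.4 FPKM in the double mutant aipp2-1/paipp2-1, 11.6 and 15 (aipp2-1), 9.15 and 8.56 (paipp2-1), 9.99 and 9.2 (aipp3-1), 10.4 and 10.6 (cpl2-2), 3.23 and 2.86 (lhp1-3) and 4.31 and 3.77 FPKM (clf-81), against 8.2 and 10.1 FPKM in Col-0. All 4 libraries of clf-81 and lhp1-3, and both of aipp2-1/paipp2-1, lay below Col-0. ERF003 fell in clf-81 (log2 change -1.08 ± 0.17 SE, adjusted p = 0.00065, limma) and in lhp1-3 (-1.44 ± 0.17, adjusted p = 0.00018). ERF094 had 4.8 and 8.3 FPKM in the double mutant aipp2-1/paipp2-1, 8.13 and 7.52 (aipp2-1), 6.57 and 5.79 (paipp2-1), 9.59 and 11.3 (aipp3-1), 6.33 and 6.79 (cpl2-2), 2.48 and 2.65 (lhp1-3) and 3.39 and 4.51 FPKM (clf-81), against 10.2 and 8.21 FPKM in Col-0. The lhp1-3 libraries were the lowest of all, followed by those of clf-81. ERF094 fell in clf-81 (log2 change -1.13 ± 0.21 SE, adjusted p = 0.0022, limma) and in lhp1-3 (-1.65 ± 0.21, adjusted p = 0.00032).

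In lhp1-3, ERF2 and ERF014 were also lower. ERF2 had 15.1 and 20.5 FPKM in the double mutant aipp2-1/paipp2-1, 12.9 and 16.8 (aipp2-1), 14.6 and 14.2 (paipp2-1), 34.1 and 28.3 (aipp3-1), 17.6 and 18.4 (cpl2-2), 5.28 and 5.34 (lhp1-3) and 13 and 19.1 FPKM (clf-81), against 11.3 and 12.6 FPKM in Col-0. ERF2 fell in lhp1-3 (log2 change -1.1 ± 0.19 SE, adjusted p = 0.0023, limma) and rose in aipp3-1 (1.35 ± 0.19, adjusted p = 0.0022), which made it the one member called in both directions. ERF014 had 1.19 and 1.3 FPKM in lhp1-3, against 2.9 and 3.59 FPKM in Col-0 (log2 change -1.1, adjusted p = 0.0053), and no longer passed without replicate 2 of Col-0. With no minimum fold, 12 members were lower in lhp1-3 and 0 higher, where 8.37% of all tested genes were lower and 9.05% higher. The same rule gave 12 higher and 6 lower members in clf-81, where 13.1% of all tested genes were higher and 14.7% lower. Floral markers moved with both Polycomb genotypes. All 5 of AP1, AP3, PI, AG and SEP3 were higher in each, with a summed level of 151 and 143 FPKM in clf-81 and 113 and 114 FPKM in lhp1-3, against 2.69 and 3.93 FPKM in Col-0. Of the same 5 genes, 2 were higher in aipp2-1/paipp2-1 and 1 in each of aipp3-1 and cpl2-2. Their sum there was at most 11.1 FPKM, in cpl2-2. The part of the floral markers in these ERF results was not tested.

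**Figure D5:**
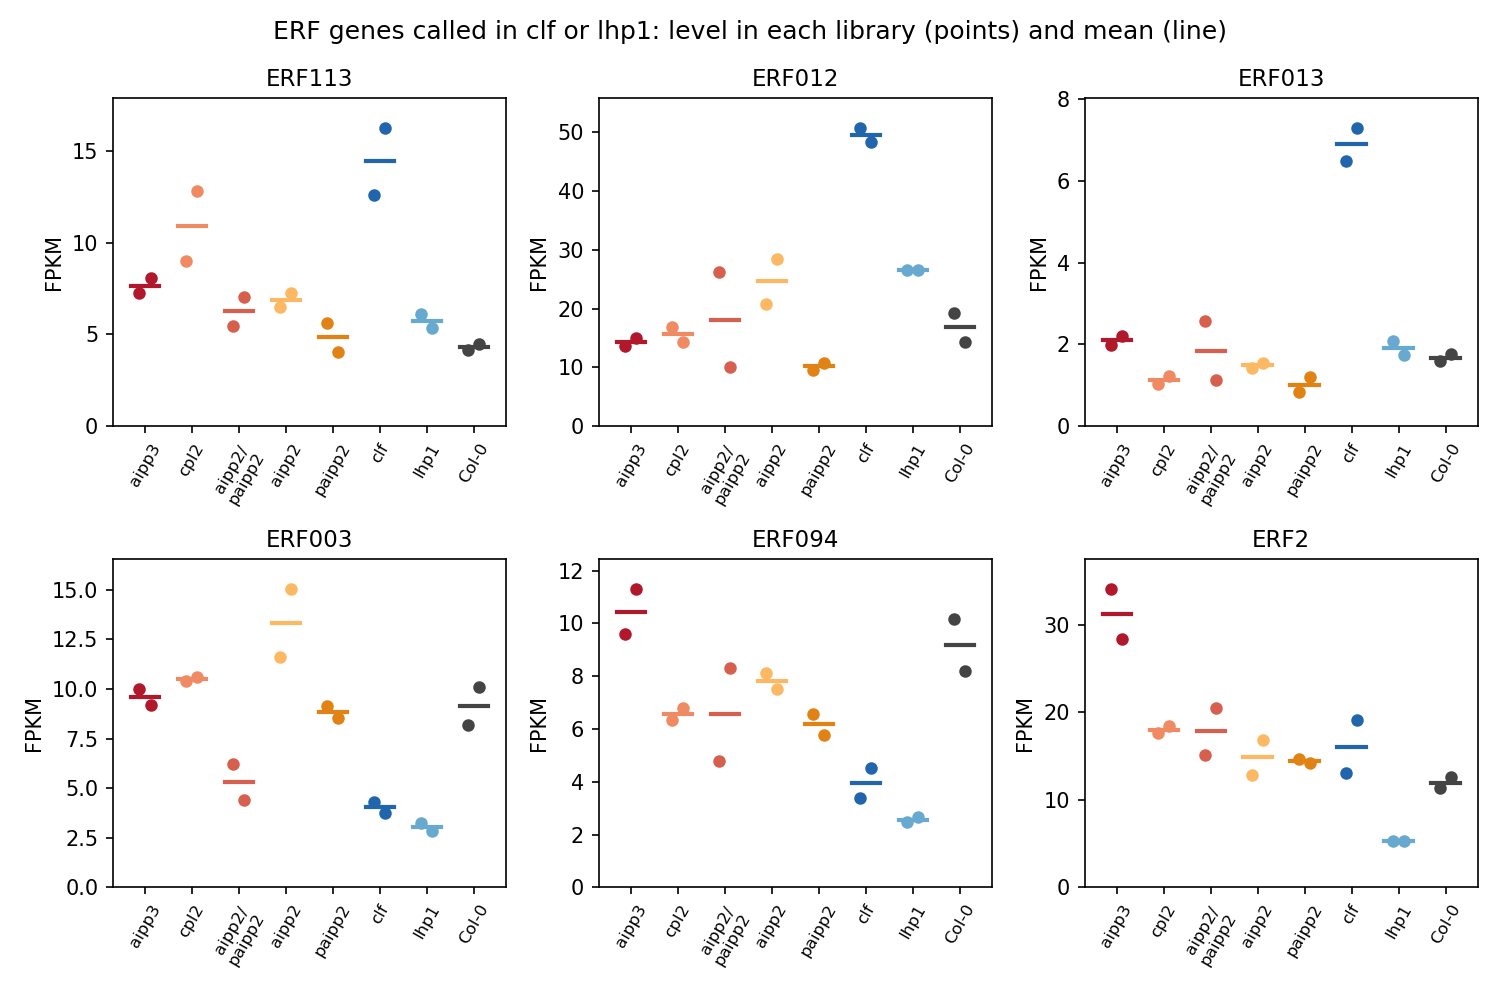
FPKM of ERF113, ERF012, ERF013, ERF003, ERF094 and ERF2 in each library (points) with the mean of the 2 libraries (line), mutants left and Col-0 right, each axis starting at 0. ERF012 and ERF013 are highest in clf-81 (50.8 and 48.3 FPKM for ERF012), and ERF003, ERF094 and ERF2 are lowest in lhp1-3 (2.48 and 2.65 FPKM for ERF094).

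In the BPC genotypes, lower calls were made only in cpl2-2 and aipp2-1/paipp2-1. They covered 1.75% of the tested members in cpl2-2, beside 0.332% of all tested genes. In aipp2-1/paipp2-1 the shares were 3.51% and 1.28%. ERF038 had 0.56 and 0.97 FPKM in cpl2-2 and 0.91 and 0.7 FPKM in aipp2-1/paipp2-1, against 2.12 and 2.46 FPKM in Col-0. It fell in cpl2-2 (log2 change -1.16 ± 0.22 SE, adjusted p = 0.0086, limma) and in aipp2-1/paipp2-1 (-1.1, adjusted p = 0.0044), while -0.93 in aipp3-1 (adjusted p = 0.022) was short of 2-fold. ERF035 had 0.5 and 2.06 FPKM in aipp2-1/paipp2-1, against 2.72 and 3.73 FPKM in Col-0 (log2 change -1.21, adjusted p = 0.021), and its log2 change was -0.53 without replicate 1 of aipp2-1/paipp2-1, which did not pass. ERF022, the remaining member higher in aipp2-1/paipp2-1, had 3.65 and 3.05 FPKM there, against 1.2 and 1.63 FPKM in Col-0 (log2 change 1.01, adjusted p = 0.034). With only aipp2-1/paipp2-1 and Col-0 in the fit, the count of higher members was 2. Among all 19895 tested genes the higher count was then 176, beside 1282 in the fit of all libraries. Seed storage genes were also higher. All 5 of CRA1, CRU3, SESA1, SESA3 and OLEO1 were called in aipp2-1/paipp2-1 and 1 in each of paipp2-1, cpl2-2 and aipp3-1. Their summed level was 96.1 and 208 FPKM in the double mutant, 50.5 and 9.61 (paipp2-1), 8.64 and 33.6 (cpl2-2) and 3.29 and 10.4 FPKM (aipp3-1), against 0.56 and 0.26 FPKM in Col-0, and their part was not tested. In cpl2-2, 1 or 0 members were higher without a replicate of cpl2-2 or Col-0 in turn, down to 0 without replicate 2 of cpl2-2, where ERF113 had a log2 change of 0.99.

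Levels were then compared between mutants. For the mean of the BPC mutants cpl2-2, aipp3-1 and aipp2-1/paipp2-1 minus the mean of clf-81 and lhp1-3, 7 members were higher and 1 lower, where 3.71% of all tested genes were higher and 2.25% lower. With quantile normalization, 4 were higher and 4 lower (580 and 547 of all 19895 tested genes). With no minimum fold, 25 were higher and 7 lower (27.4% and 16.1% of all tested genes). ERF5 was 1.45 ± 0.20 SE higher on the log2 scale in the BPC mutants (adjusted p = 0.00019, limma), and ERF2 1.18 (adjusted p = 2e-05), ERF098 1.26 (adjusted p = 0.00011) and ERF060 1.31 (adjusted p = 0.00095) higher. ERF003 (1.1), ERF094 (1.13) and the EAR repressor ERF8 (1.1) were higher in the BPC mutants as well. ERF8 had 14.9 and 11.4 FPKM in cpl2-2, 16.01 and 14.03 FPKM in aipp3-1 and 5.08 and 9.79 FPKM in the double mutant, beside 4.69 and 5.16 FPKM in lhp1-3 and 4.75 and 5.16 FPKM in clf-81. The groups did not overlap except at replicate 1 of aipp2-1/paipp2-1, which lay at the Polycomb level. ERF012 was lower in the BPC mutants (log2 difference -1.21 ± 0.21 SE, adjusted p = 0.00069). ERF11, called in mutants of both kinds, differed by 0.86, short of 2-fold.

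For aipp2-1/paipp2-1 minus the mean of aipp2-1 and paipp2-1, 5 members were higher and 1 lower, where 5.38% of all tested genes were higher and 1.32% lower. With quantile normalization, 2 were higher and 4 lower (933 and 401 of all 19895 tested genes). With no minimum fold, 8 were higher and 11 lower (15.8% and 13.5% of all tested genes). ERF098 differed by 2.2 ± 0.22 SE on the log2 scale (adjusted p = 6.2e-05, limma) and ERF6 by 1.38 ± 0.23 (adjusted p = 0.0016). The ERF098 value is a description, since that gene passed the level filter only through aipp2-1/paipp2-1 and aipp3-1. ERF13 (1.2, adjusted p = 0.042), ERF020 (1.01, adjusted p = 0.02) and ERF11 (1.00, adjusted p = 0.039) were higher by less and ERF035 was lower (-1.15, adjusted p = 0.011). The calls of ERF11 and ERF13 were each lost in 15 of 25 alternative settings, that of ERF020 in 6 of 24 and that of ERF035 in 2 of 24. ERF104 differed by 0.02 ± 0.21 (adjusted p = 0.95), since its level in both single mutants was close to that in aipp2-1/paipp2-1.

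The rest of the ethylene pathway was read from lists of genes outside the members. Of 15 genes of ethylene perception and signalling, 14 were tested and ERS2 was listed at 0 in all libraries. In the 5 BPC genotypes 0 of 14 were called in either direction, with median log2 changes of 0.21 in aipp3-1, -0.27 in aipp2-1/paipp2-1 and 0.15 in cpl2-2. Over all tested genes these medians were 0.07, 0.05 and 0.01. The change lay above 0 for 14 of 14 in aipp3-1, 13 in aipp2-1, 11 in cpl2-2, and 4 in each of paipp2-1 and aipp2-1/paipp2-1. The median was -0.41 in clf-81, where 0 of 14 lay above 0, and -0.35 in lhp1-3, where 1 of 14 did, beside -0.06 and -0.01 over all tested genes. In clf-81, 1 was lower, EBF2, an F-box protein that removes EIN3, with 24.2 and 23.2 FPKM, against 59.1 and 54.9 FPKM in Col-0 (log2 change -1.25, adjusted p = 0.00011, limma). In lhp1-3, 3 were lower: EBF2 (17.7 and 17.9 FPKM), the receptor ERS1 (31.1 and 31.9 FPKM, against 69.1 and 64.5 FPKM in Col-0) and CTR1 (25.02 and 23.88 FPKM, against 56.1 and 51.9 FPKM in Col-0). ACO4, an ACC oxidase, an enzyme of the last step of ethylene synthesis, had 79.4 and 74.8 FPKM in lhp1-3, against 293 and 258 FPKM in Col-0, and fell there (log2 change -1.83, adjusted p = 2e-05, limma), and it was not called in the other mutants.

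Of 9 defence genes of the ethylene and jasmonate response, 5 were higher in aipp2-1/paipp2-1, 6 in clf-81, 1 each in aipp3-1 and cpl2-2, and 0 in aipp2-1, paipp2-1 and lhp1-3, with 0 lower in any mutant. PDF1.2 (listed as PDF1.2A), a plant defensin, had 136 and 218 FPKM in aipp2-1/paipp2-1 and 79.1 and 77.0 FPKM in clf-81, against 31.0 and 13.1 FPKM in Col-0 (log2 change 3.06 and 1.92, adjusted p = 0.0028 and 0.024, limma). In aipp3-1, where 7 GCC-box activators were higher, PDF1.2 had 40.3 and 14.3 FPKM, which overlapped Col-0, and CHI-B, a basic chitinase, was the one gene called (55.1 and 51.3 FPKM, against 21.4 and 30.1 FPKM in Col-0, log2 change 1.05, adjusted p = 0.0081). The PDF1.2 copies are near-identical, so that fragments may be shared between them. The hypoxia group of 5 AP2/ERF genes, of which ERF071 (HRE2) is a member, had 0 calls in the BPC genotypes and clf-81, and in lhp1-3 RAP2-3 and HRE1 were lower (log2 change -1.24 and -1.04, adjusted p = 0.049 and 0.0018). ERF071 itself had 2.11 and 9.09 FPKM in Col-0, a spread that covered all 14 mutant libraries.

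The 23 members that were not tested had means of 0.388 FPKM or less. ERF017 was at 1 FPKM in replicate 1 of aipp3-1 and at 0.05 FPKM in replicate 2, against 0.05 and 0.14 FPKM in Col-0. ERF016 had 0.57 and 0.97 FPKM in clf-81 and 0.41 and 0.23 FPKM in aipp3-1, and was listed at 0 in both Col-0 libraries. ERF109, known as RRTF1 and induced by wounding, was between 0 and 0.19 FPKM throughout, below 3 fragments in most libraries at the median depth. ERF096 and ERF095, activators of the same clade as ERF098, were listed at 0 in 13 and 15 of 16 libraries.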

How the data were processed

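Polyadenylated RNA of 16 libraries was sequenced as paired ends. Reads were trimmed by the authors (Sickle, SeqPrep), who deposited, for 33048 genes, FPKM values given to 2 decimals, and the submitters' processing notes also name TopHat, Bowtie, RSEM and edgeR. Their roles, versions and the genome build are not given in the sources used here, so positions and promoter sequences come from TAIR10.1 (RefSeq), matched by gene ID for all 80 members. Depth was estimated from the FPKM steps of low genes, 94.9% to 96.4% of which lay within 0.1 of a whole fragment beside file rounding. Because the values were not counts, log2(FPKM + 0.5) was fitted with limma 3.58.1 (lmFit, then eBayes with its trend option, in R 4.3.3) to all 16 libraries, with 8 residual degrees of freedom, for genes of at least 1 FPKM in at least 2 libraries. Benjamini-Hochberg adjustment ran over 19895 genes, and a call needed an adjusted p under 0.05 and a 2-fold change.

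The members, lists and tests were chosen with earlier results of these data known. The GCC box letters were shortened to GCCGCC after a first search with a longer form. Members called in at least 1 mutant could be named, with values per library for those called in at least 2 mutants and for the 3 largest changes in each direction in each mutant. Also named were the 5 members with the highest mean, genes of the role lists, the mutated genes, and genes of other pathway lists called in at least 1 mutant. Genes named outside this rule, among them ERF12, ERF104 against its single mutants, ERF071, ZAT10 and the low members ERF016, ERF017, ERF095, ERF096, ERF109 and ERF110, were chosen after their values were seen. A result that falls under this rule, and the counts of its list, are not reported here. Alternatives were other pseudocounts, filters, scalings, no minimum fold, a replicate block, fits of 1 mutant with Col-0, and each library left out. Python 3.11.15 and pandas 2.3.3 were used for the tables.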

Additional observations from a re-analysis of the deposited data

Results flagged for a closer look

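In 8 members the level differed between the BPC mutants (cpl2-2, aipp3-1 and the double mutant aipp2-1/paipp2-1) and the Polycomb mutants (clf-81 and lhp1-3) by the limma test of the difference itself. The log2 difference was 1.45 for ERF5, 1.31 for ERF060, 1.26 for ERF098, 1.18 for ERF2, 1.13 for ERF094, 1.1 for ERF003, 1.1 for ERF8 and -1.21 for ERF012. The groups were not cleanly split around Col-0. ERF003 was below Col-0 in both Polycomb mutants but also in aipp2-1/paipp2-1, and ERF094 in both Polycomb mutants but also in cpl2-2. ERF5 and ERF2 were above Col-0 in the BPC mutants but also in clf-81. ERF098 was above Col-0 in all 14 mutant libraries, and it passed the level filter only through aipp3-1 and aipp2-1/paipp2-1. Between aipp2-1/paipp2-1 and the mean of its single mutants, 6 members differed by the same kind of test, with log2 differences of 2.2 for ERF098, 1.38 for ERF6, 1.2 for ERF13, 1.01 for ERF020, 1.00 for ERF11 and -1.15 for ERF035. The ERF11 and ERF13 differences passed in 10 of 25 alternatives each.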

How the results depend on the processing

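No named change reversed under any alternative run, and 52 of 52 stayed called with a pseudocount of 0.1 or without the trend, 49 with no filter, 47 with median-ratio scaling, 42 with a pseudocount of 1, 42 with quantile normalization, and 27 of 38 with only the mutant and Col-0 fitted. Counts of lower members in aipp3-1 were 1 with a pseudocount of 0.1, quantile normalization or no minimum fold, not 0. Lower members in cpl2-2 numbered 0 with a pseudocount of 1, a filter at 5 FPKM or the pair alone, 2 with quantile normalization and 3 with no minimum fold. In aipp2-1/paipp2-1, 2 were higher with the pair alone, and lower ones numbered 0 with a pseudocount of 1, a filter at 5 FPKM or the pair alone, and 9 with no minimum fold. With no minimum fold 6 were lower in clf-81 and 12 in lhp1-3. For BPC minus Polycomb mutants, higher counts were 4 (quantile) and 25 (no minimum fold), and lower counts 5 (pseudocount 0.1), 4 (quantile), 3 (median-ratio) and 7 (no minimum fold). For aipp2-1/paipp2-1 minus its single mutants, higher counts were 3 (pseudocount 1, no filter, or 5 FPKM), 2 (quantile or median-ratio) and 8 (no minimum fold), and lower counts 4 (pseudocount 0.1 or quantile), 0 (pseudocount 1 or 5 FPKM), 3 (median-ratio) and 11 (no minimum fold). The cause of these moves was not tested.

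Leaving out 1 library at a time, where a lone library is assumed to vary like the other groups, the higher count ranged from 4 to 9 in the double mutant, 0 to 0 (aipp2-1), 0 to 1 (paipp2-1), 6 to 11 (aipp3-1), 0 to 4 (cpl2-2), 0 to 0 (lhp1-3) and 6 to 10 (clf-81). The lower count ranged from 0 to 1 in aipp3-1 and cpl2-2, 1 to 4 in aipp2-1/paipp2-1, 0 to 0 in aipp2-1 and paipp2-1, 1 to 2 in clf-81 and 3 to 4 in lhp1-3. BPC minus Polycomb mutants gave 6 to 10 higher and 0 to 2 lower, and aipp2-1/paipp2-1 minus its single mutants 2 (without replicate 1 of aipp2-1) to 5 higher and 1 to 6 (without replicate 2 of aipp2-1/paipp2-1) lower. Without replicate 1 or replicate 2 of Col-0, 39 of 52 named calls stayed. The difference between replicate 1 and replicate 2 of each mutant correlated with that of Col-0 at -0.218 to 0.0588. Mutants were not compared with each other in this way, so handling shared among their libraries was not tested. A fit with a replicate block gave higher counts of 7 in the double mutant, 10 (aipp3-1), 2 (cpl2-2), 0 (lhp1-3) and 10 (clf-81), and of 4 in the double mutant minus its single mutants, and 51 of 52 named calls stayed. A crossed block, chosen after seeing the data, kept 52. Depth limits members under about 0.332 FPKM, where 3 fragments or fewer were read on the shortest transcripts.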
